A study of Mus musculus with 6 samples.

Results

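The inflammatory cytokine genes of irradiated brain, a set of 10 genes among the 21899 of the deposited table, were followed in the thalamus of RC mice (radiation and control virus) and RN mice (radiation and NeuroD1 virus). They were chosen by name as Il1a, Il1b, Il1rn, Il18 and Il33 of the interleukin-1 family, Tnf, Il6, Osm, Tgfb1 and Csf1, and each matched 1 row. All 6 mice were male wild-type C57BL/6J, 8 to 10 weeks old when bought, and all received a single 50 Gy dose to the left thalamus. After 2 weeks, 2 µL of AAV9 was injected into the thalamus, and whole tissue was taken 6 weeks after radiation for bulk RNA sequencing. The 3 RC mice received AAV9 GFAP104::tdTomato, in which a GFAP promoter, active mainly in astrocytes, drives a red fluorescent marker. The 3 RN mice received AAV9 GFAP104::mND1-tdTomato, the same vector with mouse NeuroD1. No unirradiated mice were analysed here, so every value describes irradiated tissue and no effect of radiation itself can be read from it.

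Interleukin-1 alpha and beta, TNF and IL-6 are early signals of inflammation in the brain, made mostly by microglia and other myeloid cells, and they act on astrocytes, endothelium and neurons through receptors that switch on NF-kB or STAT3. Interleukin-1 beta and interleukin-18 are stored as precursors and cut by caspase-1 in the inflammasome, whereas interleukin-1 alpha and interleukin-33 are alarmins, released from damaged cells. The signals are held in check by a receptor antagonist (Il1rn), by soluble or membrane decoys such as the interleukin-18 binding protein (Il18bp), and by TGF-beta. Colony-stimulating factor 1 (Csf1) keeps microglia alive through its receptor Csf1r.

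Each library held between 16561663 and 18657015 counted reads. Neurod1, the gene carried by the RN virus, rose from 84, 91 and 90 counts in RC to 1123, 1711 and 910 in RN (log2 fold change 3.77, edgeR adjusted p = 0.00179), and these counts can include viral transcripts. The markers of thalamic neurons Tcf7l2, Prkcd, Slc17a6 and Gbx2 were present in every mouse, at no fewer than 178 counts. Their levels varied widely between mice, and the groups overlapped in each. Prkcd ran from 2433 counts in RN replicate 3 to 8791 in RC replicate 3. Tcf7l2 (1322 to 3899) and Gbx2 (178 to 579) were also lowest and highest in these mice. For Slc17a6 the lowest and highest counts, 1952 and 4928, were in RC replicates 2 and 1. Markers of the choroid plexus, the tissue of the ventricles, differed between the groups and also widely within RC. In CPM (counts scaled by effective library size), the 12 genes summed to 2781, 8458 and 325.8 in RC replicates 1, 2 and 3. In the RN group they summed to between 74.9 and 151.7 CPM, none at 0. In 7 of the 12 genes every RN mouse lay below every RC mouse, against 8.12% of all tested genes. At an unadjusted p under 0.05 in edgeR, 11 of the 12 were lower, against 6.33% of all tested genes. Log2 fold changes were -5.85 for Ttr (edgeR adjusted p = 0.1075) and -1.75 for Otx2 (edgeR adjusted p = 0.123). DESeq2's Wald test gave them adjusted p of 0.000212 and 3.63e-05. It called 9 of the 12 (adjusted p under 0.05 and at least 2-fold), against 1.15% of its genes. In edgeR none was called with all mice, and without RC replicate 3 it called 8, among 23 genes in all. Summed markers of microglia (12 genes) lay between 1521 and 1666 CPM in RC, and at 1405, 1926 and 1911 CPM in the RN group replicates 1, 2 and 3. In bulk tissue, fewer cells of a type and less RNA per cell cannot be told apart.

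The bases just before the RefSeq start sites of Il1a, Il1b and Il1rn are printed because these genes encode both ligands and the antagonist of the same receptor, and had 3 of the 4 largest fitted differences among the cytokines. They are read 5′ to 3′ on the gene's strand from the build GRCm38.p6, for Il1a at chr2:129309973-129310222 (minus strand), for Il1b at chr2:129371140-129371389 (minus strand) and for the most upstream of the 3 listed Il1rn starts at chr2:24336610-24336859 (plus strand). Each is the proximal promoter, upstream of the first exon. Capitals mark a TATA box (TATAAA) or an AP-1 motif (TGANTCA), each searched on both strands. The CCAAT box (CCAAT) was searched too, with no match in these 3.
Il1a: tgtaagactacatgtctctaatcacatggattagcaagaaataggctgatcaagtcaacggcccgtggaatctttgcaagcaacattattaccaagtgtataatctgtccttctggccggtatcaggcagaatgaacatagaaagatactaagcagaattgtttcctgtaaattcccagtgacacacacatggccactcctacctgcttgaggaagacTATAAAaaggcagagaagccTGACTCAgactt
Il1b: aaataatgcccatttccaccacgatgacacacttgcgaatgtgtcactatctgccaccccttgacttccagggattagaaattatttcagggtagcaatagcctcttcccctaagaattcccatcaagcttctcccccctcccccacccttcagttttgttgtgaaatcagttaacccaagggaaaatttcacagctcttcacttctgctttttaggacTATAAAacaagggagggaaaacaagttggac
Il1rn: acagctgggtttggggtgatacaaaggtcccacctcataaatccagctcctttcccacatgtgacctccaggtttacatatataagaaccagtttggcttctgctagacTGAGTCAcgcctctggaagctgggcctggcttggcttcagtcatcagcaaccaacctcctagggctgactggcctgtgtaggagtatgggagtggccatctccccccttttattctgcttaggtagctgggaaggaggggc
Il1a had a TATA box at -32 and an AP-1 motif at -12 from its start, Il1b a TATA box at -31, and Il1rn an AP-1 motif at -141. Of 32851 mouse promoter windows of this length, 12.4% held the TATA box, 6.75% the AP-1 motif and 33.8% the CCAAT box. The NF-kB motif, found in 3.9% of windows, was not matched in these 3, while single matches lay in the windows of Il6 and Csf1. A match describes letters only and was not read as a binding site. Windows were found for 9 of the 10 genes, Osm being the other.

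Per length, the cytokine transcripts covered a wide range, and their order was nearly the same in both groups. Il33 was the most abundant, at 54.7 ± 11.1 CPM per kilobase of exon in RC and 63.8 ± 14.6 in RN (SD, n = 3 mice each). Il18 followed with 15.1 ± 0.702 and 12.8 ± 1.79, and Csf1 with 13.0 ± 2.27 and 14.6 ± 3.38, these 2 overlapping within each group. Tgfb1 stood at 5.47 ± 0.424 and 7.14 ± 1.33, apart from its neighbours in the order. Below it, Il1a at 1.09 ± 0.319 and 2.30 ± 0.306 and Il1b at 1.01 ± 0.144 and 1.78 ± 0.888 did not differ beyond their spread, nor did Osm, Tnf and Il1rn from one another. Il6 was last at 0.0393 ± 0.0128 and 0.0459 ± 0.0224 CPM per kilobase. The transcripts of the alarmin Il33, of Il18 and of the growth factors Csf1 and Tgfb1 were therefore the abundant ones, and those of Il1a, Il1b, Tnf and Il6 were scarce.

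**Figure D1:**
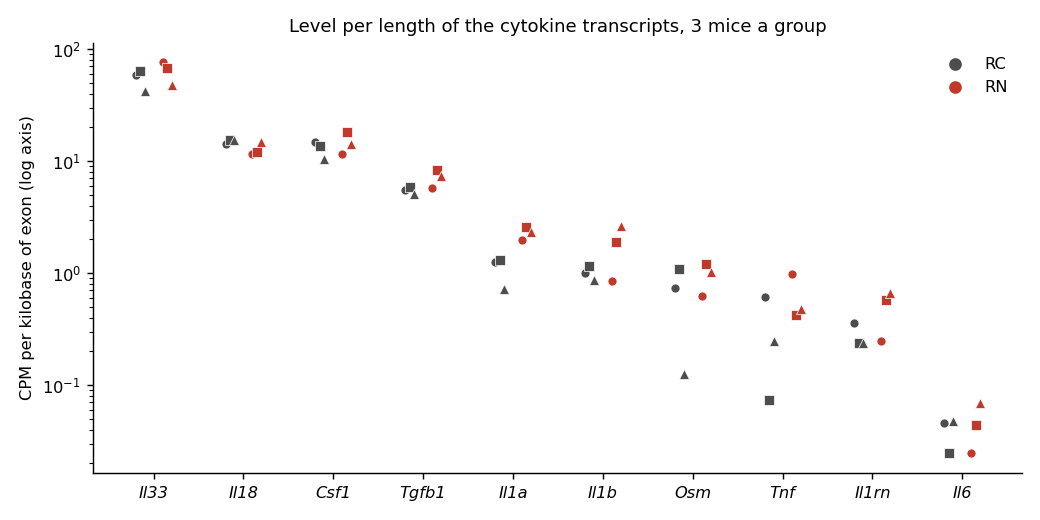
Level of each cytokine transcript in CPM per kilobase of exon, on a log axis, for each RC mouse (grey) and RN mouse (red), with circle, square and triangle for replicates 1, 2 and 3. The genes are ordered by their mean in RC, from Il33 at 54.7 to Il6 at 0.0393.

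The comparison of RN with RC asks which cytokine genes differed after NeuroD1 was delivered to irradiated tissue. Of the 10 cytokine genes, 9 passed the filter on low counts, and none was called at an adjusted p under 0.05 with a fold change of at least 2 in edgeR's quasi-likelihood test, against 0.0735% of the 14956 tested genes. DESeq2's Wald test called none of them either, against 1.15% of its 16228 genes. At an unadjusted p under 0.05, Il1a and Tgfb1 were higher in RN (2 of 9, against 5.44% of tested genes) and none was lower (against 6.33%). Il1a was the one gene of the 9 in which every RN mouse lay above every RC mouse, an arrangement seen in 8.18% of tested genes, and the opposite arrangement, seen in 8.12%, occurred in none. The fitted log2 fold change was above 0 in 8 of the 9 genes, with a median of 0.55, where 50.8% of all tested genes were above 0 and their median was 0.0037.

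Among the interleukin-1 genes, Il1a (ENSMUSG00000027399), the alarmin ligand of the receptor Il1r1, had 44, 43 and 25 counts in RC replicates 1, 2 and 3 and 66, 96 and 82 counts in RN replicates 1, 2 and 3. The lowest RN mouse was thus above the highest RC mouse. Its mean was 2.16 ± 0.629 CPM in the RC group and 4.55 ± 0.604 CPM in the RN group (SD, n = 3 mice each). The fitted fold change was 2.11, a log2 fold change of 1.08 (standard error, SE, 0.287, 95% interval 0.42 to 1.74, unadjusted p = 0.00544 and edgeR adjusted p = 0.188). The difference was larger than the spread between mice but missed the threshold over all tested genes. Its adjusted p was lowest in DESeq2's Wald test, at 0.0682, and ranged up to 0.413 over the 14 alternatives, in each of which the unadjusted p stayed under 0.05 and the log2 fold change between 0.85 and 1.75.
Il1b (ENSMUSG00000027398), the other ligand of Il1r1, had 34, 37 and 29 counts in the RC mice and 27, 67 and 89 in the RN mice. RN replicate 1 lay below all RC mice and the other RN mice above them, so that the groups overlapped. Its log2 fold change was 0.82 (SE 0.409, 95% interval -0.12 to 1.75, edgeR adjusted p = 0.499), and without RN replicate 1 it was 1.15 with an adjusted p of 0.274, against 0.43 without RN replicate 3.
Il1rn (ENSMUSG00000026981), the antagonist that occupies Il1r1 without signalling, had 35, 22 and 23 counts in the RC mice and 23, 59 and 65 in the RN mice. As for Il1b, RN replicates 2 and 3 lay above all RC mice, but RN replicate 1 lay within the RC range. Its log2 fold change was 0.83 (SE 0.412, 95% interval -0.12 to 1.77, edgeR adjusted p = 0.497). The ratio of Il1rn to Il1b counts within a library, which does not depend on scaling, was 0.806 ± 0.218 in RC and 0.821 ± 0.0801 in RN (exact permutation test, two-sided, p = 1, adjusted p = 1 over 6 ratios). That of Il1rn to Il1a was 0.742 ± 0.209 in RC and 0.585 ± 0.224 in RN, and that of Il1a to Il1b was 1.10 ± 0.219 and 1.60 ± 0.773 (both p = 0.4 and adjusted p = 0.6 in the same exact test). With 3 mice against 3 this exact permutation test cannot go below p = 0.1, so it can show neither a difference nor its absence. All 3 ratios overlapped between the groups.

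The abundant members of the family lay close to each other in the groups. Il18 (ENSMUSG00000039217), the inflammasome-processed cytokine that drives interferon gamma in lymphocytes, had 262, 268 and 277 counts in the RC mice and 200, 232 and 274 in the RN mice. It was the one tested cytokine gene whose fitted value was below 0, with a log2 fold change of -0.23 (SE 0.145, 95% interval -0.57 to 0.10, edgeR adjusted p = 0.617), and RN replicate 3 lay within the RC range of counts.
Il33 (ENSMUSG00000024810), the nuclear alarmin of glia, had 3007, 3065 and 2128 counts in the RC mice and 3699, 3638 and 2464 in the RN mice. In both groups replicate 3 was the lowest mouse. The log2 fold change was 0.22 (SE 0.199, 95% interval -0.24 to 0.68, edgeR adjusted p = 0.758), and with the replicate number as a block it was 0.22 with an unadjusted p of 0.0473 and an adjusted p of 0.360. Leaving out RC replicate 3 or RN replicate 1 brought it to 0.0661 or 0.0740, and leaving out RC replicate 2 or RN replicate 3 to 0.34 or 0.39. The 95% intervals of the fit with all mice hold no difference as large as 2-fold for Il18 or Il33.

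Tnf (ENSMUSG00000024401), the founding ligand of the TNF family, had 18, 2 and 7 counts in the RC mice and 27, 13 and 14 in the RN mice. These low counts gave a log2 fold change of 0.98 with a wide 95% interval of -0.60 to 2.56 (edgeR adjusted p = 0.669), and RC replicate 1 lay above 2 of the RN mice. Without RC replicate 1 the value was 1.94 (adjusted p = 0.325), and it was 0.52 without RN replicate 1 and 0.53 without RC replicate 2.
Il6 (ENSMUSG00000025746), the ligand of the gp130 family that acts through Il6ra, had between 1 and 3 counts in every mouse of both groups. It was removed by the filter, and no fold is given, because 3 counts, the limit that an observed 0 allows, corresponded to between 0.160 and 0.179 CPM here and covers counting error only. A difference in Il6 was not detectable at this depth.
Osm (ENSMUSG00000058755), oncostatin M of the same family, made mainly by myeloid cells, had 30, 41 and 5 counts in the RC mice and 24, 51 and 41 in the RN mice. RC replicate 3 stood apart, and the log2 fold change of 0.55 (95% interval -0.87 to 1.97, edgeR adjusted p = 0.818) was 0.0623 without it. With a score of the choroid plexus markers (the mean of their centred log2 CPM in each mouse) added to the model it was 3.14 (adjusted p = 0.226), and with the microglia score 0.11. The choroid plexus score did not overlap between the groups, so this fit cannot cleanly tell the score from the group.

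Tgfb1 (ENSMUSG00000002603), which restrains microglia and promotes scar matrix, had 491, 498 and 445 counts in the RC mice and 483, 785 and 668 in the RN mice. Scaled by library, RN replicate 1 at 28.7 CPM lay within the RC range of 25.5 to 29.8 CPM, and RN replicates 2 and 3 lay above it at 41.97 and 37.4 CPM. The log2 fold change was 0.39 (SE 0.149, 95% interval 0.04 to 0.73, unadjusted p = 0.0322, edgeR adjusted p = 0.358), and without RN replicate 1 it was 0.52 with an adjusted p of 0.224, against 0.25 without RN replicate 2. Against Tgfbr2, the receptor subunit that binds the ligand, the within-library ratio of counts was 0.262, 0.286 and 0.268 in RC and 0.420, 0.418 and 0.354 in RN. This ratio separated the groups (exact permutation test, two-sided, p = 0.1, the smallest it can give here, and adjusted p = 0.3 over 6 ratios). The ratio was chosen after the data were seen, and so was that of Tgfb2 to Tgfb1, which went the other way, from 0.836 ± 0.145 in RC to 0.594 ± 0.0709 in RN without overlap (the same p values).
Csf1 (ENSMUSG00000014599), the survival factor of microglia, had 1394, 1210 and 962 counts in the RC mice and 1024, 1802 and 1333 in the RN mice. RN replicate 2 was the highest mouse and RC replicate 3 the lowest, with the others mixed between them. Its log2 fold change of 0.17 (95% interval -0.25 to 0.60, edgeR adjusted p = 0.804) was -0.0231 without RN replicate 2. Il34, the other ligand of Csf1r, had a log2 fold change of 0.10, and the ratio of Csf1 to Il34 counts was 3.64 ± 0.779 in RC and 3.92 ± 0.999 in RN.

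**Figure D2:**
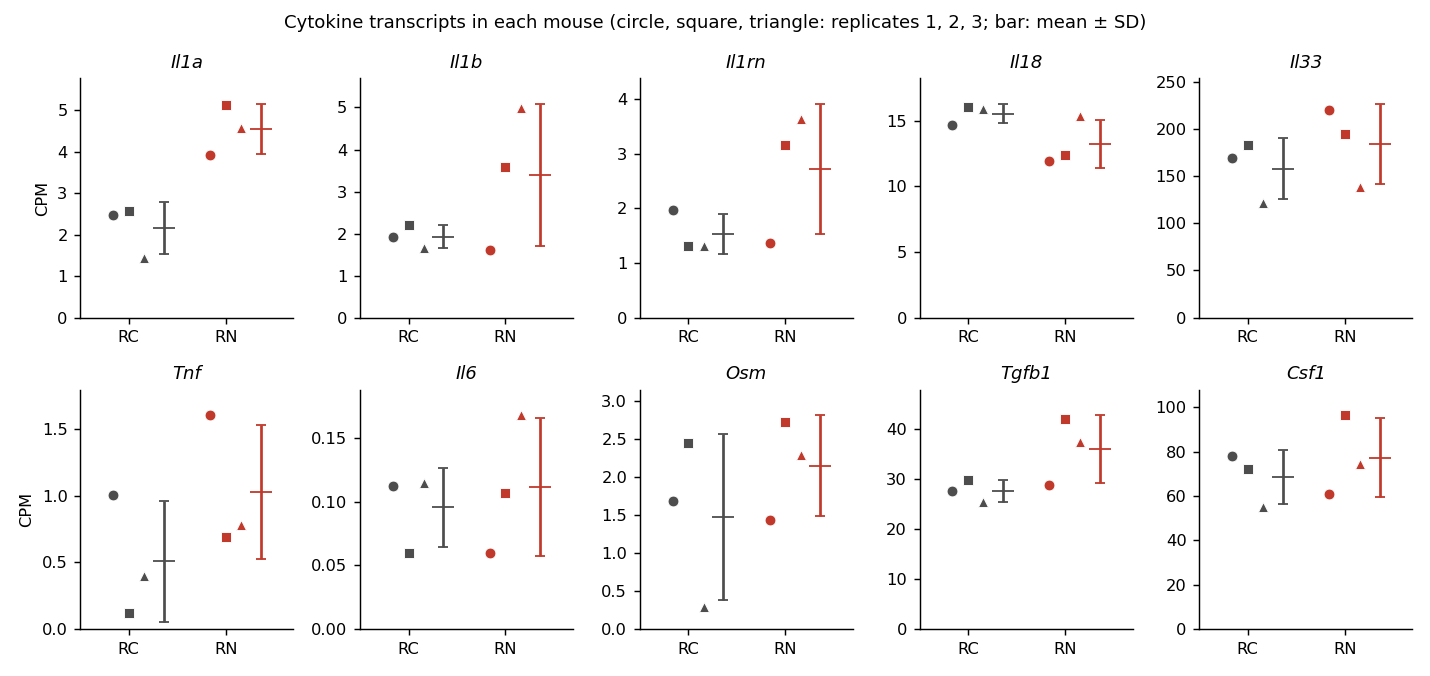
Level of each of the 10 cytokine genes in CPM, each on its own axis from 0, for the 3 RC (grey) and 3 RN (red) mice; symbols mark replicates 1, 2 and 3 and bars the mean ± SD. Il1a is the one gene of the 9 tested with no overlap, while in Il1b, Il1rn and Tgfb1 RN replicate 1 (circle) lies within or below the RC range and RN replicates 2 and 3 above them.

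The mice also differed from one another across the set. Of the 9 genes above the floor, RC replicate 3 was the lowest mouse in 5, and RN replicate 2 the highest in 4. For Il1a, Il1b, Il1rn, Il18, Osm, Tgfb1 and Csf1 the lowest RN mouse was replicate 1, which was also the lowest RN mouse in the summed microglia markers and in Cd68, a lysosomal marker of activated myeloid cells, with 2410, 4407 and 3415 counts in RN against 2014 to 2354 in RC. None of the 12 microglia markers or the 10 macrophage and monocyte markers was called, and the median log2 fold change was 0.11 and -0.0374. Trem2 and C1qb, of microglia, were at 0.33 and 0.28, Cd68 at 0.60 and Lyz2, of macrophages, at 0.20 on the log2 scale. Others went the other way, with Cx3cr1, of microglia, at -0.184 and Ccr2 and Ly6c2, of monocytes, at -0.625 and -0.519. Of the 12 microglia markers 9 lay above 0 and 3 below. The 10 macrophage and monocyte markers split into 5 above and 5 below. With the microglia score as a covariate, an alternative added after the data were seen, the log2 fold change was 0.90 for Il1a (edgeR adjusted p = 0.343), 0.22 for Il1b, 0.31 for Il1rn, 0.23 for Tgfb1 and -0.00884 for Csf1. None of them was called in that fit. With the choroid plexus markers in the model instead, Il1a had a log2 fold change of 1.75 (edgeR adjusted p = 0.250), Il1b of 1.22 and Il1rn of 1.03. The choroid plexus score was 1.77, 3.12 and -0.769 in the RC mice and -1.59, -1.36 and -1.17 in the RN mice. It did not overlap between the groups, so a fit with it cannot cleanly tell the score from the group. The part of these cell types in the differences was not tested.

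The receptors, co-receptors and decoys of these cytokines numbered 19, of which 16 were tested. None was called by edgeR, and the median log2 fold change was -0.12. At an unadjusted p under 0.05, 1 was higher and 2 were lower, against 5.44% and 6.33% of all tested genes. Il18bp, the secreted protein that binds interleukin-18 and blocks it, had 324, 200 and 188 counts in the RC mice and 580, 1042 and 597 in the RN mice. Each RN mouse was well above each RC mouse. Its mean was 13.6 ± 3.98 CPM in the RC group and 41.2 ± 12.6 CPM in the RN group (SD, n = 3 mice each), and the log2 fold change was 1.60 (SE 0.260, 95% interval 1.00 to 2.19, edgeR adjusted p = 0.0696). DESeq2's Wald test called it, with an adjusted p of 1.71e-07, as did edgeR without a filter on low counts, with 0.0394. The values of Il18bp were 1.81 and 1.47 on the log2 scale with the choroid plexus and microglia scores as covariates. Its ligand Il18 lay at -0.23, and the signalling receptor genes Il18r1 and Il18rap were too low to test, with 1 to 17 and 3 to 31 counts per mouse.
Eng, the TGF-beta co-receptor of endothelium, had 1568, 1260 and 1662 counts in the RC mice and 568, 1018 and 1069 in the RN mice, which gave a fitted log2 fold change of -0.80 (SE 0.200, edgeR adjusted p = 0.161 and 0.00518 from DESeq2, where it missed the fold threshold). Beside it, 6 of the 10 endothelial markers were lower at an unadjusted p under 0.05, against 6.33% of all tested genes. Their median log2 fold change was -0.44, with Pecam1 at -0.70 and Kdr at -0.72. Their summed level was 453.3 to 528.9 CPM in the RC group and 324.3 to 415.7 CPM in the RN group, with none at 0. The part of these markers in Eng was not tested. Sigirr, an inhibitory receptor of the interleukin-1 family, had 53, 52 and 43 counts in the RC mice and 34, 36 and 27 in the RN mice, without overlap (log2 fold change -0.64, edgeR adjusted p = 0.402).
The 6 main receptor genes that follow overlapped between the groups. Their log2 fold changes were -0.15 for Il1r1, -0.0242 for Tnfrsf1a, -0.21 for Il6ra, -0.25 for Osmr, -0.15 for Tgfbr2 and -0.13 for Csf1r, with adjusted p from 0.725 to 0.979 in edgeR. Each of the 6 changed sign under at least 1 alternative. With the choroid plexus score Il1r1 was at 0.18, Tnfrsf1a at 0.0743, Il6ra at 0.0568, Osmr at 0.46 and Csf1r at 0.0232. With the microglia score Osmr was at -0.68 (edgeR adjusted p = 0.234), Tgfbr2 at -0.36 (0.319) and Csf1r at -0.31 (0.352). Without RN replicate 1, Tnfrsf1a was at 0.13, Osmr at 0.0175, Tgfbr2 at 0.0217 and Csf1r at 0.0213, and without RC replicate 2, Il1r1 was at 0.0698 and Tnfrsf1a at 0.0405. Tnfrsf1b, the other TNF receptor, overlapped with a log2 fold change of 0.51 (edgeR adjusted p = 0.428), and Lifr, a receptor subunit that oncostatin M can share, did not overlap, at 33.5 ± 0.514 CPM in the RC group and 36.8 ± 3.14 in the RN group (log2 fold change 0.13, edgeR adjusted p = 0.687). Il1rl1, the interleukin-33 receptor, had 0 to 18 counts per mouse and a standard error of 0.958 on the log2 scale, so that little can be said of it.

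**Figure D3:**
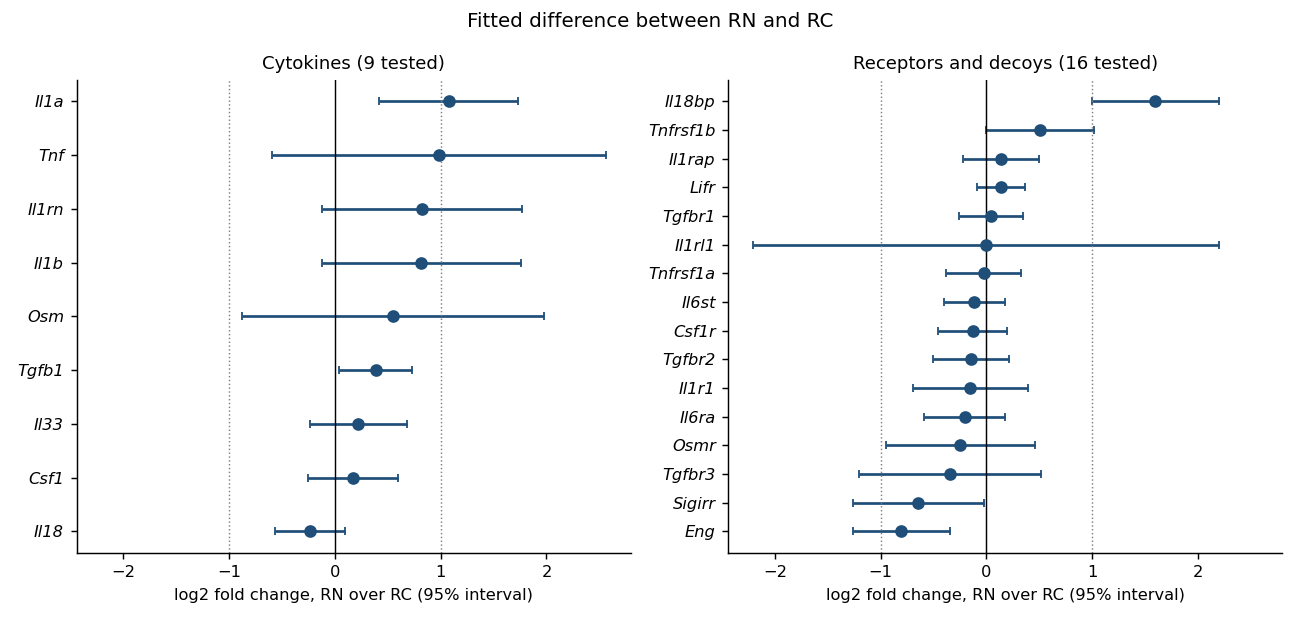
Fitted log2 fold change of RN over RC with its 95% interval for the 9 tested cytokine genes (left) and 16 tested receptor and decoy genes (right); dotted lines mark a 2-fold difference. Intervals of Il1a and Tgfb1 lie above 0 on the left, and Il18bp stands highest on the right at 1.60.

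Genes that release or activate the cytokines, which include the inflammasome, showed little difference. Of 21 genes 20 were tested, none was called, and the median log2 fold change was 0.0059. At an unadjusted p under 0.05, 1 was higher and 1 lower, against 5.44% and 6.33% of all tested genes. Casp1, the protease that cuts pro-interleukin-1 beta and pro-interleukin-18, had 113, 76 and 66 counts in the RC mice and 58, 93 and 97 in the RN mice (log2 fold change -0.0814). Nlrp3, the inflammasome sensor, was at -0.21, its adaptor Pycard at 0.19 and the pore-forming Gsdmd at 0.0263, all with overlapping groups.
Ltbp1, which anchors latent TGF-beta in the matrix, had 94, 104 and 52 counts in the RC mice and 116, 180 and 143 in the RN mice (log2 fold change 0.76, edgeR adjusted p = 0.332), and Nlrc4, another inflammasome sensor, had a log2 fold change of 0.57 (adjusted p = 0.541). Itgb8 encodes an integrin subunit of astrocytes that activates latent TGF-beta. It had 1468, 1264 and 1319 counts in the RC mice and 1029, 1092 and 1072 in the RN mice. Its groups were tight and apart, with a log2 fold change of -0.38 (SE 0.0808, edgeR adjusted p = 0.126). Beside it, 7 of 10 astrocyte markers were lower at an unadjusted p under 0.05, against 6.33% of all tested genes. Their summed level was 6109 to 7825 CPM in the RC group and 4223 to 5401 CPM in the RN group, with none at 0. The log2 fold change was -0.76 for Aldoc and -0.52 for Sox9, and the part of these markers in Itgb8 was not tested.

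Of 24 genes known to be induced by these cytokines, 22 were tested and none was called by edgeR, with a median log2 fold change of -0.0115. At an unadjusted p under 0.05, 2 were higher and 2 lower, against 5.44% and 6.33% of all tested genes. Timp1, an inhibitor of matrix proteases induced by oncostatin M and TGF-beta, had 42, 89 and 71 counts in the RC mice and 125, 322 and 210 in the RN mice, which gave a fitted log2 fold change of 1.64 (SE 0.371, edgeR adjusted p = 0.136). With the replicate number as a block Timp1 was called, with an adjusted p of 0.0453, and DESeq2 called it with 0.00109. Serpina3n, an acute-phase protease inhibitor of reactive astrocytes named after its values were seen, had 7398, 8375 and 8058 counts in the RC mice and 6882, 25937 and 15711 in the RN mice (log2 fold change 0.96, edgeR adjusted p = 0.341), with RN replicate 1 below the RC mice.
Lcn2, the lipocalin induced by interleukin-1 and NF-kB, had 422, 368 and 772 counts in the RC mice and 113, 297 and 255 in the RN mice, without overlap. Its log2 fold change was -1.28 (SE 0.363, edgeR adjusted p = 0.205), DESeq2 called it with 0.00689, and without RC replicate 3 the value was -0.89. Nos2, the inducible nitric oxide synthase, had 29, 36 and 56 counts in the RC mice and 18, 23 and 23 in the RN mice (log2 fold change -0.96, edgeR adjusted p = 0.331). The feedback genes of the pathways lay near 0 or overlapped, with log2 fold changes of 0.62 for Socs3, -0.44 for Nfkbia, 0.0791 for Tnfaip3 and 0.0176 for Smad7, and Saa3 had at most 4 counts in a mouse.

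**Figure D4:**
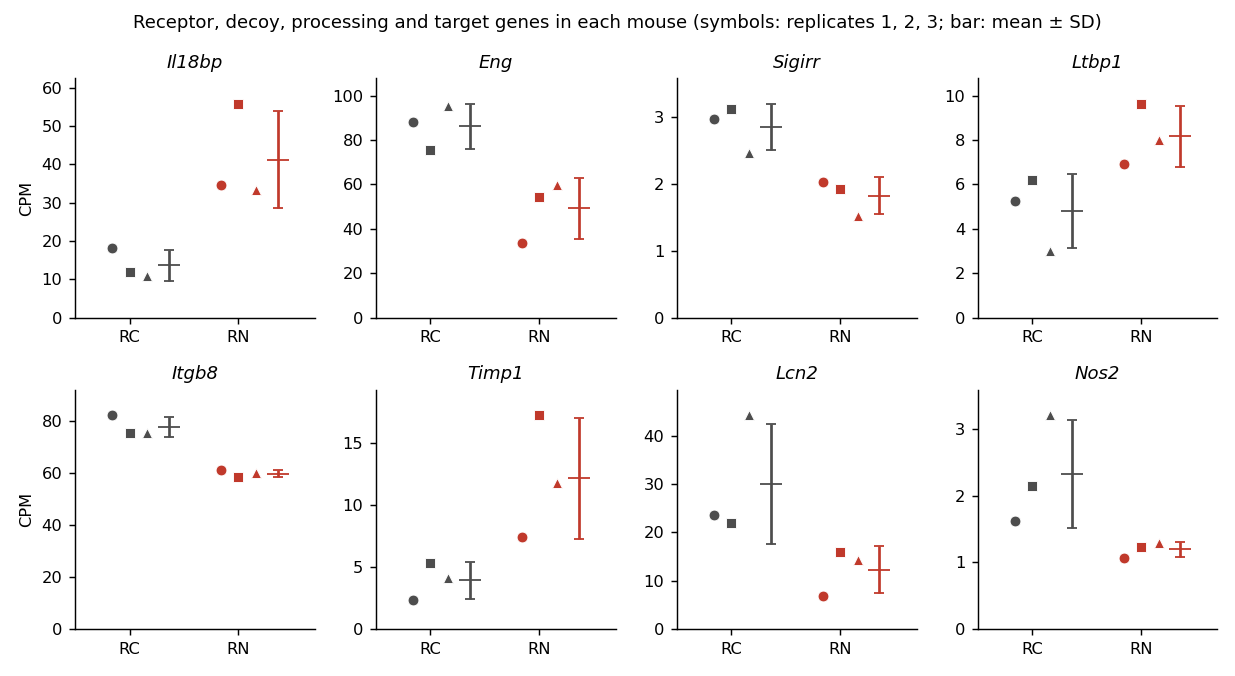
Level in CPM of the receptor, decoy, processing and target genes named by smallest p with an unadjusted p under 0.05, in each RC (grey) and RN (red) mouse, on axes from 0; symbols mark replicates 1, 2 and 3 and bars the mean ± SD. Il18bp, Ltbp1 and Timp1 lie higher and Eng, Sigirr, Itgb8, Lcn2 and Nos2 lower in each RN mouse than in each RC mouse.

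Other cytokines of the same families and of T cells were mostly scarce. Of 35 genes 34 matched the table and 15 were tested, none was called, and the median log2 fold change was -0.0251. At an unadjusted p under 0.05, none was higher and 1 was lower, against 5.44% and 6.33% of all tested genes. Cntf, an astrocyte cytokine of the IL-6 family, had 97, 73 and 105 counts in the RC mice and 39, 70 and 51 in the RN mice (log2 fold change -0.82, edgeR adjusted p = 0.235). Ebi3 had a log2 fold change of 0.48 and Il15 of -0.54, both with overlapping groups. The T cell cytokines Il2, Il13 and Il17a and the growth factor Csf3 had 0 counts in all 6 mice, and Ifng, the product downstream of interleukin-18, had at most 5. Markers of T, NK and B cells summed to between 12.9 and 22.7 CPM in the RC group and 7.79 and 21.6 CPM in the RN group, and those of neutrophils to between 25.1 and 30.5 CPM in the RC group and 21.5 and 31.5 CPM in the RN group, with none called. Of the 6 tested lymphocyte markers 5 had a log2 fold change below 0, with a median of -0.82. Cd8a had 125, 38 and 36 counts in the RC mice and 20, 31 and 40 in the RN mice. Its log2 fold change was -1.16 (edgeR adjusted p = 0.439), and -0.35 without RC replicate 1. That mouse also had the highest sum of these markers in the RC group. Cd3e, lower in every RN mouse than in every RC mouse, was at -0.88 (adjusted p = 0.470), and at -0.56 without RC replicate 1. Cd4, which microglia and macrophages can also express and which was named after its values were seen, went the other way, with 62, 91 and 101 counts in the RC mice and 47, 136 and 244 in the RN mice. The neutrophil genes Camp and S100a8 were at 0.64 and -0.35 with wide spreads.

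**Figure D5:**
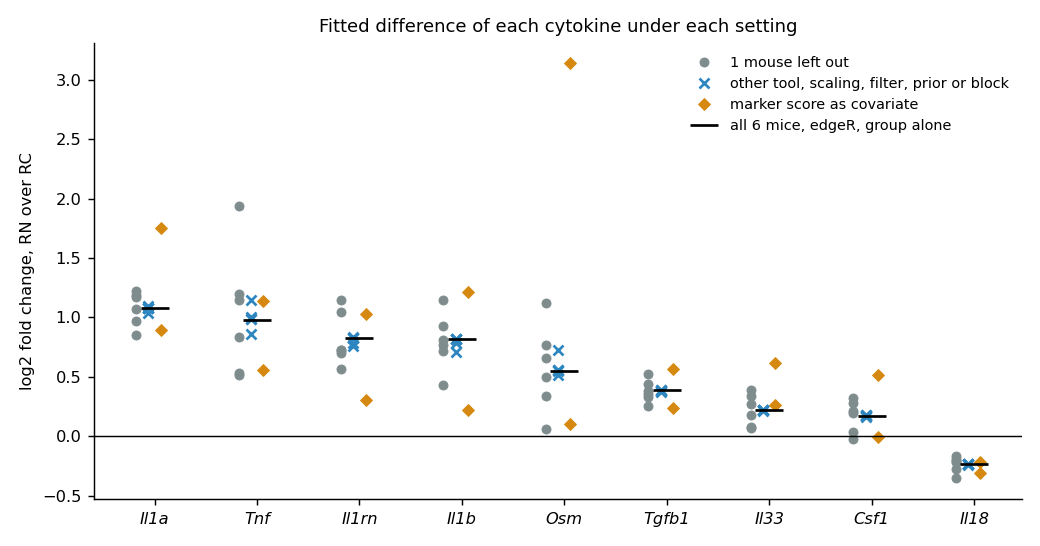
Log2 fold change of each tested cytokine gene (RN over RC) with all 6 mice (black bar), with 1 mouse left out (grey), with another tool, scaling, filter, prior count or the replicate block (blue) and with a marker score as covariate (orange). Il1a stays between 0.85 and 1.75, while Csf1 crosses 0 and Osm reaches from 0.0623 to 3.14.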

How the data were processed

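Bulk RNA of thalamus tissue from 3 RC and 3 RN mice was prepared with the NEBNext Ultra kit and sequenced on an Illumina NovaSeq. The authors deposited whole-number read counts per gene, 1 column per mouse, without normalization. The submitters' processing notes list fastp 0.18.0, FastQC, HISAT2 2.2.4 and RSEM 1.2.19 and the build GRCm39 without giving their roles. The annotation and the use of strand are not given in the sources used here, so the handling of shared and overlapping reads is unknown.

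Samples were grouped by their titles. edgeR 4.0.16 in R 4.3.3 filtered low counts (filterByExpr, minimum count 10), scaled with TMM and fitted group alone by quasi-likelihood on 14956 genes, with Benjamini-Hochberg adjustment. A call needed both an adjusted p under 0.05 and a 2-fold difference. Fitted log2 fold changes used a prior count of 0.125, standard errors were the log2 fold change divided by the root of F, and intervals were 95%. DESeq2 1.42.0, the tool of the study, was the main alternative. Labels do not say whether mice shared a litter or cage, and p-values measure the spread between these mice. Deviations from the group means correlated weakly between same-numbered mice, at 0.173, 0.12 and 0.209 for replicates 1, 2 and 3. RC replicate 1 with RN replicate 2 gave 0.156, and the other pairs lay between -0.285 and 0.0603. Labels give no pairing of RC with RN mice, and blocked values are given where they change a call. Counts differed between every pair of libraries by more than counting noise (chi-square divided by its degrees of freedom, lowest value 15.8), and none was merged. Exon lengths came from GENCODE M21 and promoter sequences from RefSeq (GRCm38.p6).

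The cytokine genes, the gene and marker lists and the tests were chosen with earlier results of these data known. Named are all 10 cytokines, Neurod1, 1 receptor of each, and up to 3 genes of each pathway list and 2 of each marker list by smallest p. Thalamic markers, ratios of counts and other genes given with values were chosen after their values were seen. Oligodendrocyte, neuron and red cell markers (10, 10 and 5 genes) were also summed, and none was called, with median log2 fold changes of -0.17, 0.14 and -0.88 (Mobp -0.36 and Mal -0.27, Nefm 0.25 and Eno2 0.17, Hba-a1 -0.96 and Hbb-bs -0.95).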

Additional observations from a re-analysis of the deposited data

How the results depend on the processing

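No cytokine gene was called by edgeR or DESeq2 under any alternative, and 2 of the 9 tested had an unadjusted p under 0.05 in the reported fit. Among 124 repeated fits of single cytokine genes the direction turned only for Csf1, to -0.0231 without RN replicate 2 (range without 1 mouse -0.0231 to 0.319) and to -0.00884 with the microglia score as a covariate, which was added after the data were seen. Over all genes the count of calls moved from 11 to 186 with DESeq2's Wald test, 43 without a filter on low counts, 22 with the replicate block, 1 with the choroid plexus score and 4 with the microglia score as covariates, and between 3 and 30 with 1 mouse left out; the cause was not tested. DESeq2 size factors, at least 10 counts in every mouse and no fold threshold left it at 11 or 12. The replicate block changed no call but that of Timp1 among the genes described. Low counts left wide intervals for Tnf and Osm, and removed Il6 from the reported fit. DESeq2's Wald test and edgeR without the filter held all 10 genes and called none.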
